A study of Mus musculus with 18 samples.

Results

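Gene expression 30 h after dexamethasone was set against expression 26 h after it, in 3 arrays of 30 h and 3 arrays of 26 h out of 18 in all, taken by the time in each array's label. The cells were wild type mouse embryonic fibroblasts, connective tissue cells grown out from C57BL/6 embryos of embryonic day 13 after head and liver were removed. All samples had been exposed to 100 nM dexamethasone, a synthetic glucocorticoid, for 2 h, so neither time is an untreated control. By label, the 30 h and 26 h samples had the same genotype and treatment and differed in the time since it. The labels trace the cells to 2 mice, with wild type siblings of a Bmal1 knockout mating used for these arrays, and call the 3 samples of a time biological replicates without further detail. The other samples were taken at 22, 34, 40 and 46 h, 3 at each time, and entered the fits as neighbours in time.

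A short glucocorticoid exposure sets the circadian clocks of cultured cells to a common phase. In that clock, the proteins CLOCK and BMAL1 (gene Arntl) bind E-box sequences and drive the period and cryptochrome genes, the REV-ERB genes and Dbp and Tef. Period and cryptochrome proteins feed back on CLOCK and BMAL1, REV-ERB and ROR proteins act on ROR elements in Arntl and Cry1, and the D-box factors act on Per3 and other targets. The comparison asks which transcripts differed over the 4 h between these samplings.

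Values below are log2(intensity + 16) after quantile normalization, 1 probe set a gene, for 19938 genes. A difference is the 30 h mean minus the 26 h mean on that log2 scale, which understates the change of dim genes. The median intensity was 196 on the dimmest array and 210 on the brightest. Precision is limited by having 3 arrays a time. Probe sets differ in brightness for reasons other than RNA, so marker levels are a description. The 13 fibroblast markers had a median level of 11.72 over all arrays, with Thy1 and Fap among the dimmer genes (36.8th and 7.28th percentiles of level). The marker lists of macrophages, endothelium, epithelium, nerve, skeletal muscle, fat, bone and blood had medians of 6.63 to 7.63.

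Of the 6 arrays, 2 went against their labels in the levels of core clock genes. The array labelled 30 h replicate 3 resembled 26 h replicates 1 and 3, and the array labelled 26 h replicate 2 resembled 30 h replicates 1 and 2. Across the 21 measured core clock genes, each centred on its mean over all 18 arrays, the array labelled 30 h replicate 3 correlated at 0.511 and 0.478 with the other 30 h arrays, and at 0.908 and 0.899 with 26 h replicates 1 and 3. The array labelled 26 h replicate 2 correlated at 0.555 and 0.435 with the other 26 h arrays, and at 0.852 and 0.875 with 30 h replicates 1 and 2. These are correlations across genes, which are not independent replicates, and they serve as a description. The level of 18 of the 21 genes on the array labelled 30 h replicate 3 lay nearer to the mean of 26 h replicates 1 and 3 than to that of 30 h replicates 1 and 2, against 55.2% of all genes. For the array labelled 26 h replicate 2 the count nearer to the other time was 13 of 21, against 45.3% of all genes. Over all genes these 2 arrays correlated more closely with each other (0.9974) than with any other of the 6. Along the largest component of spread within times, which held 33.8% of it, they scored 0.274 and 0.269. The other 4 of the 6 arrays lay between -0.168 and -0.106. Arrays of other times scored as far from 0 or further, among them 22 h replicates 1 and 2 (0.276 and -0.426) and 40 h replicate 2 (0.406). The component therefore does not single out these 2 arrays among the 18. Arrays were kept under their labels throughout, and results are given with and without these 2.

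No gene passed the test between 30 h and 26 h. Of 19938 genes, 0 (0%) had an adjusted p under 0.05 in limma with Benjamini-Hochberg adjustment, and the smallest adjusted p was 0.9999. At an unadjusted p under 0.05 there were 517 genes (2.59%). Differences ran between -0.49 and 0.53 log2, with 5th and 95th percentiles of -0.11 and 0.12 and a median of 0.004. All 3 arrays of 30 h lay above all 3 of 26 h in 794 genes (3.98%), and below them in 532 genes (2.67%). Without the 2 arrays named above, 0 genes passed, 570 had an unadjusted p under 0.05 and the smallest adjusted p was 0.999.

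The precision of the differences was as follows, with each array at its label. The median SE of a difference was 0.072 log2, and a gene with that SE would have needed a difference of 0.50 to pass if it alone did, or 0.33 if 100 genes did. The 95% confidence interval lay inside 0.25 log2 on either side of 0 for 14774 genes (74.1%) and inside 0.5 for 19765 genes (99.1%). It reached beyond 1 for 3 genes, Gm5662, Rny1 and Scarna13, named after their values were seen. Without the 2 arrays the interval lay inside 0.25 for 10806 genes (54.2%) and inside 0.5 for 19393 (97.3%). The values of Per3 and Nr1d2 without them, -0.49 each, fell outside these genes' own intervals with all arrays, whose lower ends were -0.45 and -0.47. Rny1 and Scarna13 encode short noncoding RNAs, and they also held the lowest and the highest difference of all genes.

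**Figure D1:**
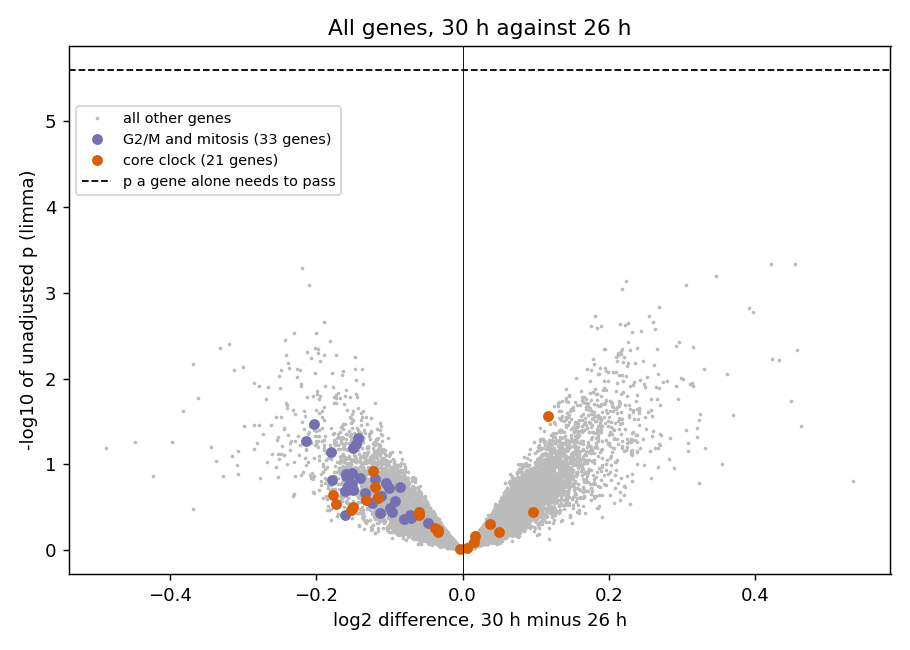
Difference between 30 h and 26 h (log2, x axis) against -log10 of the unadjusted limma p (y axis) for 19938 genes, with the 33 measured G2/M genes and the 21 core clock genes coloured. The dashed line marks the p that a gene would need if it alone passed, and no gene reaches it; all 33 G2/M genes lie left of 0.

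Among the period genes, which encode repressors of CLOCK and BMAL1, Per3 had levels of 8.37, 8.37 and 8.94 at 30 h, against 8.82, 8.41 and 8.92 at 26 h. Each group held levels near 8.4 and near 8.9, and the odd array of each group was the one described above. The Per3 difference was -0.15 ± 0.14 (SE) log2, with a 95% interval of -0.45 to 0.15. Per2 had levels of 7.80, 7.72 and 7.96 at 30 h, against 7.99, 7.80 and 8.07 at 26 h, a difference of -0.12 ± 0.07. Per1 differed by 0.05 ± 0.09. The groups overlapped in all 3 period genes.

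The cryptochromes are the partners of the period proteins in repression. Cry1 was the core clock gene with the smallest p. Its levels were 8.48, 8.49 and 8.54 at 30 h, against 8.43, 8.40 and 8.33 at 26 h, so that all 30 h arrays lay above all 26 h arrays. Cry1 differed by 0.12 ± 0.05 log2, with a 95% interval of 0.01 to 0.22, and did not pass the test (limma unadjusted p = 0.0273, adjusted p = 0.9999). On Cry1 the 2 arrays thus stood with their labelled groups, and without them the difference was 0.10. Cry2 had a difference of -0.06 ± 0.06 with overlapping groups.

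The REV-ERB genes encode nuclear receptors that repress Arntl. Nr1d1 (REV-ERB alpha) had levels of 9.05, 9.09 and 9.32 at 30 h, against 9.49, 8.91 and 9.57 at 26 h. Nr1d2 (REV-ERB beta) had levels of 10.00, 10.01 and 10.61 at 30 h, against 10.43, 10.17 and 10.55 at 26 h. The highest Nr1d2 level of the 6 arrays was on the array labelled 30 h replicate 3, and the lowest Nr1d1 level was on the array labelled 26 h replicate 2. Nr1d1 differed by -0.17 ± 0.16 and Nr1d2 by -0.18 ± 0.14. Rora and Rorb, which encode activators at the same element, differed by 0.04 ± 0.05 and 0.01 ± 0.07.

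The D-box activators Dbp and Tef showed the same layout. Dbp had levels of 9.54, 9.51 and 9.87 at 30 h, against 9.82, 9.51 and 9.98 at 26 h. Tef had levels of 9.49, 9.46 and 9.78 at 30 h, against 9.78, 9.49 and 9.83 at 26 h. In both genes 3 arrays were near 9.5 and 3 lay above 9.7, and each time held arrays of both kinds. Dbp differed by -0.13 ± 0.11, Tef by -0.12 ± 0.09 and their relative Hlf by -0.06 ± 0.07. Nfil3, a repressor at D-boxes, differed by -0.004 ± 0.071.

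The activator gene Arntl ran the other way, with levels of 9.47, 9.47 and 9.22 at 30 h, against 9.19, 9.57 and 9.12 at 26 h. Its highest level was on the array labelled 26 h replicate 2, and the groups overlapped. Arntl differed by 0.10 ± 0.10, Clock by -0.03 ± 0.06 and Arntl2, a paralogue of Arntl, by -0.04 ± 0.06. The E-box repressor genes Bhlhe40, Bhlhe41 and Ciart differed by -0.12 ± 0.10, -0.03 ± 0.06 and -0.15 ± 0.15. The kinase genes Csnk1d and Csnk1e, whose products phosphorylate period proteins, differed by 0.02 ± 0.04 and 0.02 ± 0.06.

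Of the 21 core clock genes, 14 had values below 0, where 46.9% of all genes did, and the median was -0.04. With all 30 h arrays above all 26 h arrays there was 1 gene, Cry1, against 3.98% of all genes, and there was no gene with all below, against 2.67%. Without the 2 arrays, which leaves 2 at each time, 15 of the 21 values were below 0 and the median was -0.11. Of all 19938 genes, 9972 were then below 0. Per3 was then -0.49, Nr1d2 -0.49, Nr1d1 -0.46, Dbp -0.38, Ciart -0.33, Tef -0.33, Per2 -0.27 and Arntl 0.32. The arrays were doubted on these same genes, so these values are a description with no test. Whether the 2 arrays carry another label's RNA was not tested.

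**Figure D2:**
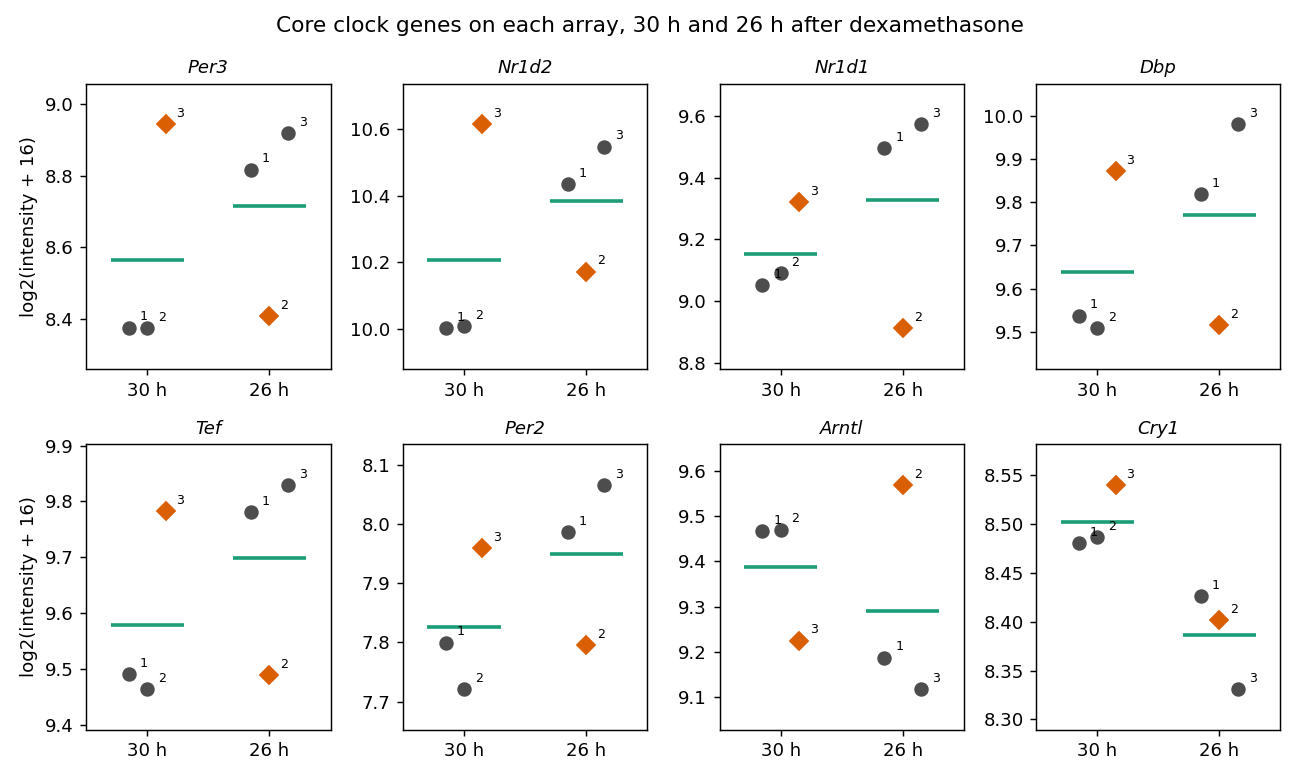
Level (log2(intensity + 16), y axis) of 8 core clock genes on each array of 30 h (left) and 26 h (right), with the replicate number beside each point and a green line at the group mean. Orange diamonds are the arrays labelled 30 h replicate 3 and 26 h replicate 2, which stand apart from their groups in the genes other than Cry1.

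Over the 6 times, the means of Per2, Per3, Nr1d1, Nr1d2, Dbp and Tef were lower at 34 h than at 30 h or 26 h. At 22 h Per3 averaged 8.61 ± 0.07, at 26 h 8.71 ± 0.27, at 30 h 8.56 ± 0.33 and at 34 h 7.76 ± 0.02 (SD, 3 arrays a time). The SD of Per3 was larger at 30 h and 26 h than at the times on either side. Tef likewise had an SD of 0.18 at both 30 h and 26 h, with 0.07 in the 22 h samples and 0.03 in the 34 h samples. Cry1 averaged 7.84 in the 22 h samples, 8.39 in those of 26 h, 8.50 in those of 30 h (its highest mean) and 8.31 in those of 34 h, with SDs of 0.03 at 30 h and 0.05 at 26 h.

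**Figure D3:**
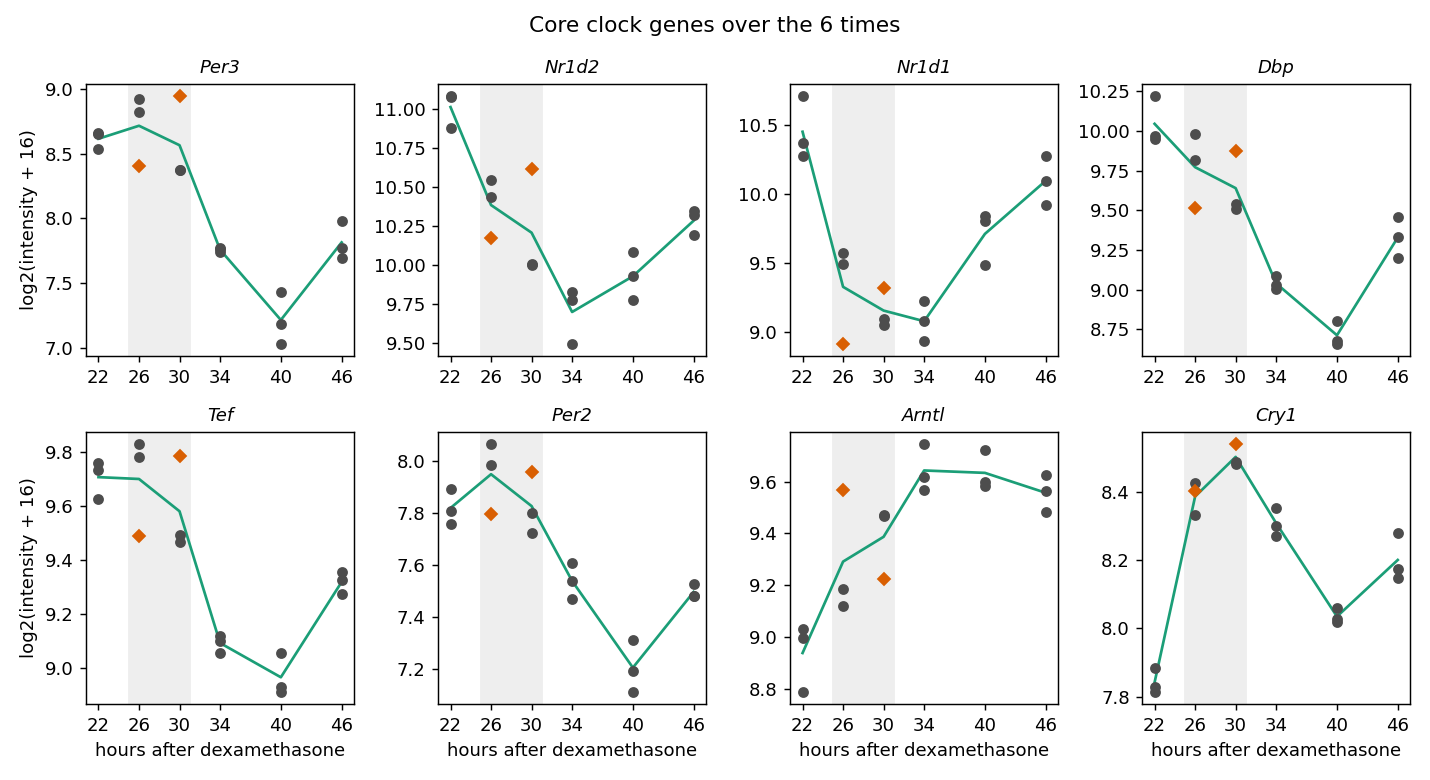
Level (log2(intensity + 16), y axis) of 8 core clock genes against hours after dexamethasone (x axis), 3 arrays a time, with a green line through the means and 26 h and 30 h shaded. Orange diamonds are the arrays labelled 30 h replicate 3 and 26 h replicate 2, each apart from the other arrays of its time except in Cry1, whose mean is highest at 30 h.

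The promoters of 4 of these genes are given because they hold, between them, each kind of clock element named above. They are from RefSeq (GRCm38.p6) and run from 250 bases before the gene start to 50 after it, read along the gene's strand, with capitals marking the elements found. Per3 (chr4:151044616-151044915, minus strand) holds the D-box TTATGTAA at 205 and 158 bases before its start. Tef (chr15:81802423-81802722, plus strand) holds the E-box CACGTG at 127 bases before. Arntl (chr7:113207261-113207560, plus strand) holds the ROR element TAGGTCA at 30 bases after its start. Cry1 (chr10:85185005-85185304, minus strand) holds the E-box at 60 and CACGTT, a variant E-box read on the other strand, at 79 bases before.
Per3: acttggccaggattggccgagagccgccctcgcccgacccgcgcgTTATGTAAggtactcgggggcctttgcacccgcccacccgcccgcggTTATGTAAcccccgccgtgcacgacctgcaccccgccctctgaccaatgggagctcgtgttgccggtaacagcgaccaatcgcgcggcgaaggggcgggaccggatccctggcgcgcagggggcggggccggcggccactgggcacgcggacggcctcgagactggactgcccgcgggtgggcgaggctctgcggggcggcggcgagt
Tef: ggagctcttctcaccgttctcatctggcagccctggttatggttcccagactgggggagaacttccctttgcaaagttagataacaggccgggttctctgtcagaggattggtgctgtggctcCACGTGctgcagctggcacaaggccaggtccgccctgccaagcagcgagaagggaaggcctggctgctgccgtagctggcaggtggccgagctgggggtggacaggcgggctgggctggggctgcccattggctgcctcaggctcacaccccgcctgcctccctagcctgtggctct
Arntl: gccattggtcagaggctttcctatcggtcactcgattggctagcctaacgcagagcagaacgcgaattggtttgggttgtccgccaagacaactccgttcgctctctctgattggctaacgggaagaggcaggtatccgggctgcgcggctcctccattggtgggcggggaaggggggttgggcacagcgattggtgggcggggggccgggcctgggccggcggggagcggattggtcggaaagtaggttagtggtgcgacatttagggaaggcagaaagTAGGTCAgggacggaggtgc
Cry1: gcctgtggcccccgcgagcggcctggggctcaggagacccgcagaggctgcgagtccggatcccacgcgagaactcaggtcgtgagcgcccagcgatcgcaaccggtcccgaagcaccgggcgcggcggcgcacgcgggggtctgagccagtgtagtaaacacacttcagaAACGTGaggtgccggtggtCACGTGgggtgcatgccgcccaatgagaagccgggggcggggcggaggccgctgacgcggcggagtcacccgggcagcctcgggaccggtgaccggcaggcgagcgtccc
Each motif was searched on both strands in 32851 promoters of this length, and hits of different motifs were counted apart even where they overlapped. CACGTG was in 7.15% of promoters, CACGTT in 4.68%, TTATGTAA or TTACGTAA in 1.06% and TAGGTCA in 2.61%. The median difference of the measured genes with each was 0.003, -0.003, 0.006 and 0.01 log2 in that order, against 0.005 for the 15614 measured genes with any promoter. An unadjusted p under 0.05 was found in 2.59% of all genes, which include genes without a promoter here. The share among genes with a promoter was not computed. Such a p was found in 30 of 1483 measured genes with CACGTG (2.02%) and 19 of 886 with CACGTT (2.14%). It was found in 7 of 182 with a D-box (3.85%) and 22 of 411 with TAGGTCA (5.35%). Of the 18 core clock genes with a promoter, 5 held CACGTG, 4 CACGTT, 1 a D-box and 2 TAGGTCA, so the promoters shown were picked for their elements. Those of Dbp and Nr1d2 held none. Where a gene had several promoters the one with the most elements is shown, or the first listed where they tied. The other Arntl promoter held none, and the other Tef promoter also held 1 E-box. A match is a description of these letters and not evidence of binding.

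Genes that act in G2 and mitosis had lower means at 30 h than at 26 h in all 33 measured members of the list, and none passed the test. The list's median level on the 30 h arrays was 9.55, 9.63 and 9.60, against 9.79, 9.64 and 9.78 on the 26 h arrays. The groups did not overlap, and the array labelled 26 h replicate 2 was the lowest of its group, just above the highest 30 h array. The median difference was -0.14 log2, a ratio of 0.908, within a range of -0.21 to -0.05. In 10 of the 33 genes all 30 h arrays lay below all 26 h arrays, against 2.67% of all genes. These genes are known to be expressed together in dividing cells, so the 33 are not independent.

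Kif2c, a kinesin that takes apart microtubules at kinetochores, had levels of 9.01, 9.10 and 9.08 at 30 h, against 9.23, 9.13 and 9.44 at 26 h. Ube2c, the ubiquitin enzyme of the anaphase-promoting complex, had levels of 10.83, 10.94 and 10.995 at 30 h, against 11.02, 11.05 and 11.13 at 26 h. In both genes the 30 h arrays lay below the 26 h arrays without overlap. Kif2c differed by -0.20 ± 0.09 (limma unadjusted p = 0.0335, adjusted p = 0.9999) and Ube2c by -0.14 ± 0.07 (unadjusted p = 0.0486, adjusted p = 0.9999). The checkpoint kinases Ttk and Bub1 differed by -0.21 ± 0.10 and -0.18 ± 0.12. Top2a, which untangles DNA, had levels of 10.99, 11.05 and 11.10 at 30 h, against 11.27, 11.13 and 11.18 at 26 h. Mki67, the proliferation marker, differed by -0.10 ± 0.07, Cdk1, the mitotic kinase, by -0.11 ± 0.12, and Aurka, a spindle kinase, by -0.09 ± 0.06, each with overlapping groups.

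Without the 2 arrays that went against their labels on clock genes, the G2/M values were below 0 in 33 of 33 genes, with a median of -0.20. Without 26 h replicate 3 the count was 31 of 33 and the median -0.11. Under median scaling and in the values as deposited all 33 were below 0, with medians of -0.16 and -0.15. The share of cells in mitosis and the RNA made per cell cannot be told apart in these bulk samples.

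The genes of the G1/S transition and DNA replication had values below 0 in 28 of 32, a median of -0.09, and all 30 h arrays below all 26 h arrays in 4, against 2.67% of all genes. Mcm5, a subunit of the replicative helicase, had levels of 9.71, 9.77 and 9.56 at 30 h, against 9.88, 9.60 and 10.00 at 26 h. Mcm3 had levels of 9.33, 9.44 and 9.32 at 30 h, against 9.51, 9.39 and 9.58 at 26 h. In both helicase genes the array labelled 26 h replicate 2 lay among the 30 h arrays. Pcna, the sliding clamp, differed by 0.004 ± 0.063.

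The genes of cholesterol synthesis and uptake had values below 0 in all 20 measured members, with a median of -0.05 and a range of -0.145 to -0.003. All 30 h arrays lay below all 26 h arrays in 3 of the 20, against 2.67% of all genes: Cyp51, Msmo1 and Sqle, enzymes of the later steps, named after their values were seen. Cyp51 had levels of 10.25, 10.21 and 10.23 at 30 h, against 10.29, 10.42 and 10.41 at 26 h, a difference of -0.145 ± 0.112. The count of 20 depended on single arrays. It was 14 of 20 without 30 h replicate 3 and 14 of 20 without 26 h replicate 3, and 18 of 20 without both arrays that went against their labels.

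Extracellular matrix genes had values above 0 in 26 of 29, with a median of 0.04, and 20 of 29 under median scaling, where the median was 0.02. Collagens had values above 0 in 37 of 44, and in 30 of 44 under median scaling, where the median was 0.02. Without 30 h replicate 2 the collagen count was 30 of 44. Of all genes, 53.1% had values above 0 after quantile normalization, and 8725 of 19938 did under median scaling. The matrix and collagen lists overlap, with Col6a3 in both, so their counts are not independent. All 30 h arrays lay above all 26 h arrays in 3 of the 29 matrix genes and 5 of the 44 collagens, against 3.98% of all genes. Col1a1, a chain of type I collagen and 1 of these, had levels of 12.96, 12.96 and 12.87 at 30 h, against 12.84, 12.84 and 12.86 at 26 h. Col3a1, of type III collagen, had levels of 12.47, 12.47 and 12.43 at 30 h, against 12.41, 12.42 and 12.34 at 26 h. Both were named after their values were seen, and the differences were 0.08 ± 0.07 and 0.07 ± 0.08. Lum, the matrix proteoglycan lumican, repeated the layout of the clock genes, with levels of 9.15, 9.04 and 8.83 at 30 h, against 8.70, 9.17 and 8.77 at 26 h. It differed by 0.13 ± 0.11, and by 0.36 without the 2 arrays.

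**Figure D4:**
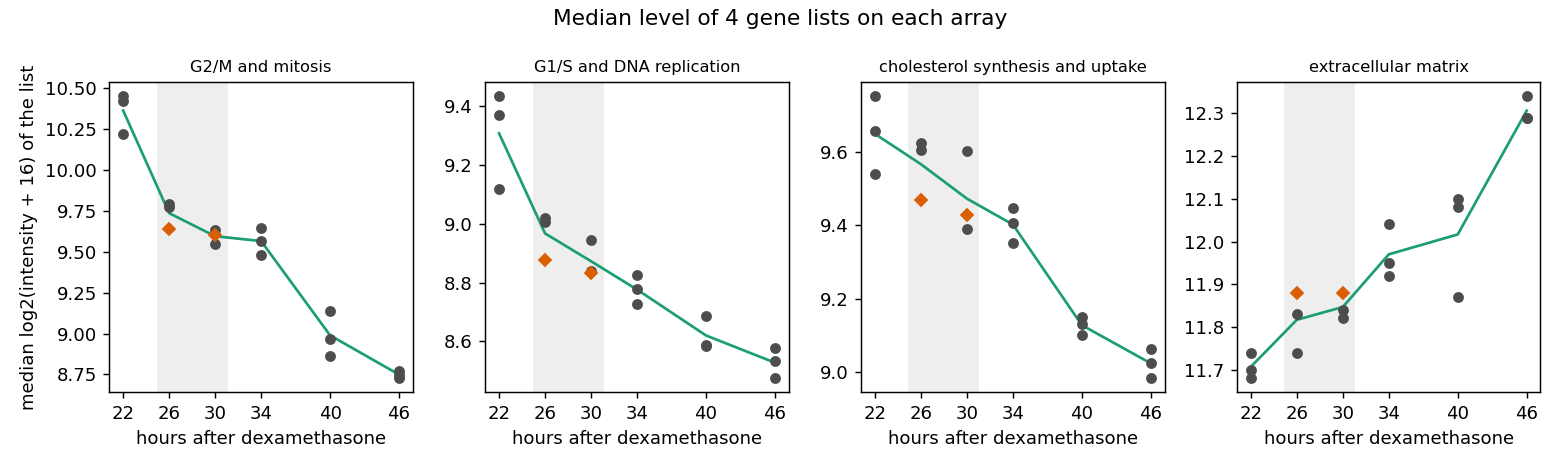
Median level (log2(intensity + 16), y axis) of 4 gene lists on each of the 18 arrays against hours after dexamethasone (x axis), with a green line through the means and 26 h and 30 h shaded. Orange diamonds are the arrays labelled 30 h replicate 3 and 26 h replicate 2. The G2/M median was 9.55 to 9.63 on the 30 h arrays and 9.64 to 9.79 on the 26 h arrays, and 10.22 to 10.45 at 22 h.

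Genes that respond to glucocorticoid were split evenly, with 12 of 24 above 0 and 12 below and a median of -0.004. Fkbp5 and Tsc22d3, targets of the glucocorticoid receptor in many cells, differed by 0.0006 ± 0.0693 and 0.02 ± 0.06. Serpina3n, a protease inhibitor of the acute phase response, had levels of 10.13, 10.57 and 10.15 at 30 h, against 10.93, 10.32 and 10.95 at 26 h. It differed by -0.45 ± 0.22, the second lowest value of all genes, and the groups overlapped through 30 h replicate 2 and the array labelled 26 h replicate 2. Its limma unadjusted p was 0.055 and its 95% interval reached 0.01 above 0. Inflammatory genes had values below 0 in 15 of 17, where 46.9% of all genes did, with a median of -0.05. Without both arrays that went against their labels the count was 12 of 17, where 9972 of all 19938 genes were below 0. The list's median level ran the other way, averaging 8.50 on the 30 h arrays and 8.43 on the 26 h arrays. Il6, an inflammatory cytokine, had levels of 4.83, 4.82 and 4.90 at 30 h, against 5.01, 5.05 and 5.21 at 26 h, but its level lay in the dimmest 1 percent of genes (0.507th percentile).

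The 45 gene lists had 0 members that passed. Counts with all arrays after quantile normalization stand beside 46.9% of all genes below 0 and 53.1% above. Their medians lay between -0.14 for the G2/M list and 0.04 for the macrophage markers, which are dim in these cells (median level 6.98). Ribosomal proteins had 30 of 59 above 0, proteasome subunits 17 of 39 and respiratory complex I 14 of 34. Mitochondrial ribosomal proteins had 57 of 77 below 0. Immediate early genes had 15 of 29 below 0 and small nucleolar RNAs 29 of 51. Clock output genes had 14 of 26 above 0, and heat shock and cold-inducible genes 14 of 19 below. Glycolysis and hypoxia genes had 16 of 21 below 0, interferon response genes 12 of 16, and kinesins, several of them mitotic motors, 24 of 37. Matrix proteases had 17 of 23 above 0, and autophagy and lysosome genes 12 of 17. MicroRNA genes had 153 of 300 below 0 and a median of -0.0008. Without the 2 arrays several medians changed sign, and of all 19938 genes 9966 lay above 0 and 9972 below. Above 0 were then 41 of 77 mitochondrial ribosomal proteins, 29 of 51 small nucleolar RNAs, 15 of 29 immediate early genes, 23 of 39 proteasome subunits and 19 of 34 complex I genes. MicroRNA genes then had 189 of 300 below 0 and a median of -0.04. Under median scaling autophagy and lysosome genes had 7 of 17 above 0 and ribosomal proteins 18 of 59, with medians of -0.01 and -0.03, and matrix proteases had 14 of 23. Of all 19938 genes, 8725 were above 0 under median scaling. In the values as deposited 10728 were, and microRNA genes had 161 of 300 above 0 and ribosomal proteins 26 of 59.

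**Figure D5:**
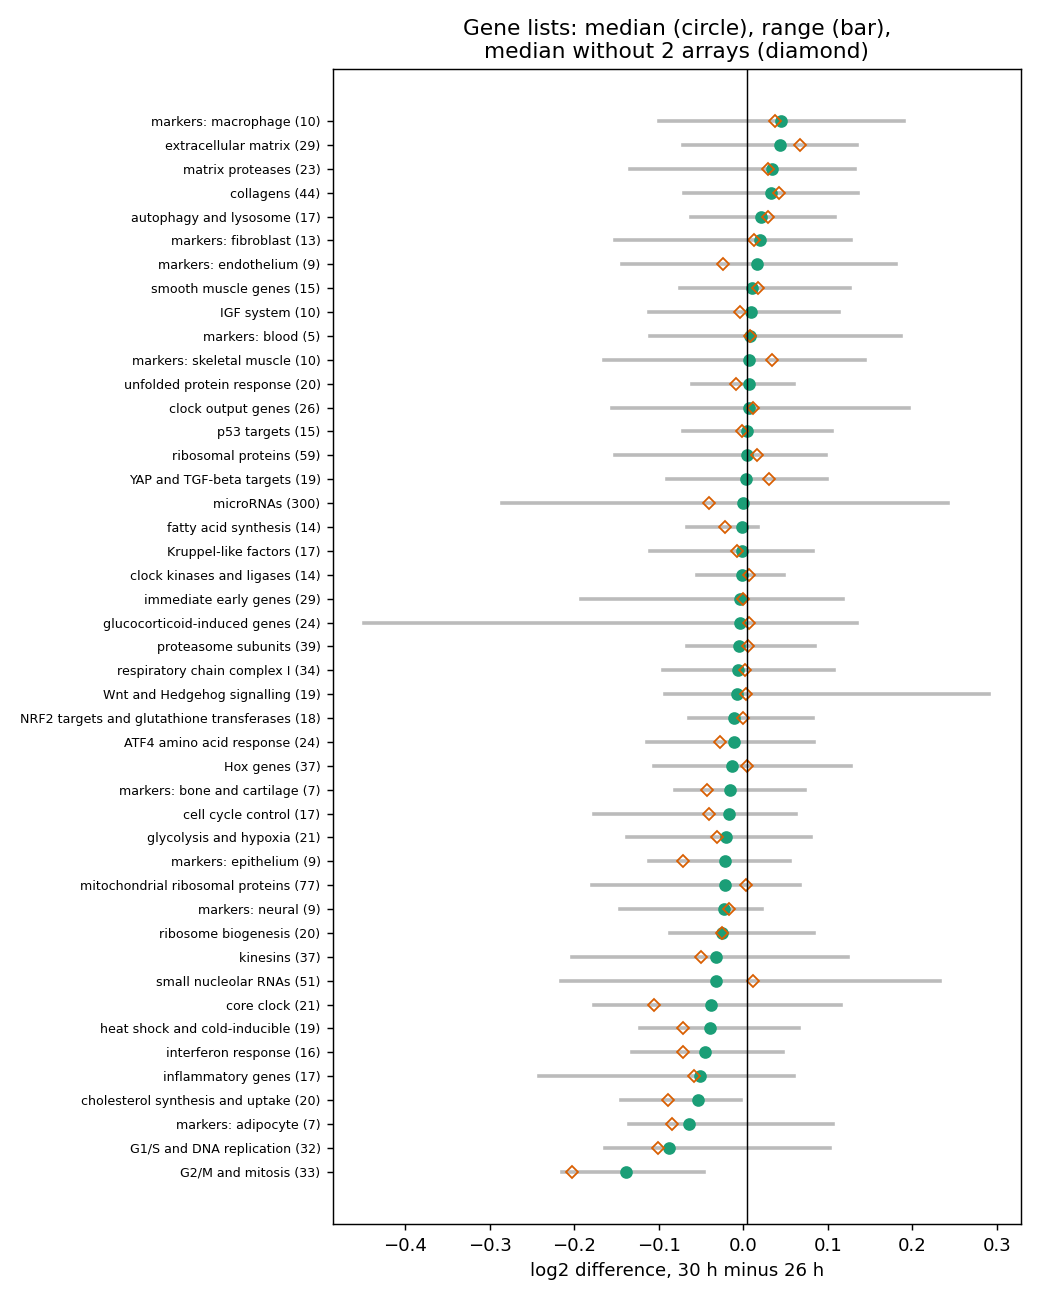
Difference between 30 h and 26 h (log2, x axis) in 45 gene lists (rows, number of measured genes in brackets), as the median (circle), the range over members (bar) and the median without the arrays labelled 30 h replicate 3 and 26 h replicate 2 (diamond). The vertical line is the median of all genes, 0.004, and the G2/M list has the lowest median at -0.14.

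The named genes with the smallest p in each direction were dim, with gene models and olfactory and vomeronasal receptors passed over. Of the 12 with values above 0, 11 lay below the median level of all genes, as did 12 of the 12 with values below 0, and none passed. Cldn15, which encodes a tight junction protein, was the exception. It had levels of 8.79, 8.65 and 8.79 at 30 h, against 8.53, 8.35 and 8.55 at 26 h, and differed by 0.27 ± 0.07 (limma unadjusted p = 0.00147, adjusted p = 0.9999). Crabp2, a retinoic acid binding protein, had levels of 7.01, 7.04 and 7.11 at 30 h, against 7.21, 7.33 and 7.29 at 26 h. It differed by -0.22 ± 0.05 (limma unadjusted p = 0.000509, adjusted p = 0.9999). Cspg5, a proteoglycan best known from the nervous system, had levels of 7.31, 7.25 and 7.40 at 30 h, against 7.06, 7.10 and 7.12 at 26 h. These genes were taken for their small p between the labelled groups, a choice that favours groups without overlap. The groups did not overlap in 11 of the 12 with values above 0 and in 12 of the 12 with values below 0. Hhip, an inhibitor of Hedgehog signalling, had levels of 6.98, 6.82 and 6.84 at 30 h, against 6.67, 6.44 and 6.66 at 26 h, a difference of 0.29 ± 0.09.

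The 4 h steps on either side called more genes. Between 26 h and 22 h, 436 genes (2.19%) passed, 191 higher at 26 h and 245 lower, and between 34 h and 30 h, 18 genes (0.0903%) passed, 3 higher at 34 h and 15 lower. The median absolute difference was 0.07 log2 in the first step, 0.04 between 30 h and 26 h, and 0.06 in the last. The steps share the 26 h or the 30 h arrays, so each difference between steps was tested in 1 contrast. That contrast called 0 genes (0%) against the step before, with 967 at an unadjusted p under 0.05 and a smallest adjusted p of 0.153. It called 0 genes (0%) against the step after, with 843 at an unadjusted p under 0.05 and a smallest adjusted p of 0.386.

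The G2/M list had a median of -0.66 between 26 h and 22 h, -0.14 between 30 h and 26 h, and -0.05 between 34 h and 30 h. In 29 of its 33 genes the contrast with the step before had an unadjusted p under 0.05, against 4.85% of all genes, and none passed. Aurka, named after its value was seen, averaged 10.17 in the 22 h samples, 9.44 in the 26 h samples and 9.36 in the 30 h samples. Its steps differed by 0.64 ± 0.11 (limma adjusted p = 0.153). With arrays weighted by their quality, 4 genes passed that contrast, Aurka, Tacc3, Fam83d and Aspm, all genes of the mitotic spindle. Their weighted values were 0.66, 0.63, 0.69 and 0.77, with adjusted p of 0.0382 for Aurka and 0.0387 for the others. Cry1 ran the other way, with steps that differed by -0.43 ± 0.08 (limma adjusted p = 0.315).

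Small nucleolar RNAs, which guide the modification of ribosomal RNA, had lower values in the step after. Their list had a median of -0.03 between 30 h and 26 h, and -0.23 between 34 h and 30 h. Snora3, named after its value was seen, had levels of 10.34, 10.45 and 10.39 at 30 h, against 10.32, 10.15 and 10.02 at 26 h, and a mean of 9.67 at 34 h. Its steps differed by 0.95 ± 0.16, which did not pass (limma adjusted p = 0.386). The contrast with the step after had an unadjusted p under 0.05 in 19 of 51 small nucleolar RNAs, against 4.23% of all genes. Per3 had a difference of 0.66 ± 0.25 between these steps, which did not pass (limma adjusted p = 0.9998).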

How the data were processed

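Total RNA of 18 samples was measured with Affymetrix whole-transcript kits, each sample on its own array, per the labels' protocols. The authors deposited linear intensity values, 1 for each probe set. The submitters' processing notes name PLIER 2.0 and Affymetrix Expression Console 1.1, without their settings. Of 35556 probe sets, the platform annotation gave 1 symbol for 21789, several for 1621, and left 12146 unnamed here. The brightest probe set was kept for the 999 genes with several, which left 19938 genes. RefSeq (GRCm38.p6) gave the promoters and matched 21698 probe sets by gene identifier.

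Intensities were taken as log2(value + 16) and quantile normalized. A mean for each of the 6 times was fitted over the 18 arrays in limma 3.58.1 in R 4.3.3, with Benjamini-Hochberg adjustment and a threshold of 0.05. The 3 contrasts were 30 h minus 26 h, and that step minus the step before or after it. The labels give no separate cultures for the 3 samples of a time, and describe the medium in differing ways, so the spread behind the p-values is that between these samples and may be technical. An exact permutation test of 3 against 3 cannot go below 0.1, so none is given.

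The comparison, the gene lists and the rule for named genes were chosen with earlier results of these data known. The rule took all core clock genes, the 12 genes with the smallest p in each direction and 2 of each list; members printed outside it were chosen after their values were seen. Alternatives covered the scaling, the constant, dim genes, probe sets, a replicate block, weighted arrays, the variance model, the threshold and each array left out.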

Additional observations from a re-analysis of the deposited data

How the results depend on the processing

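Across 19 alternatives, no setting gave a gene that passed between 30 h and 26 h. In 18 of them the contrasts between steps were also at 0. Under array weights, 4 genes passed the contrast with the step before, where the equal-weight fit gave 0, and the cause was not tested. For 30 h against 26 h the number of genes at an unadjusted p under 0.05 ran between 52, among genes above the median level only, and 827, without 26 h replicate 1, against 517. The smallest adjusted p of any alternative was 0.223, without 26 h replicate 2. Counts of calls without each array in turn were 0 to 0. Leaving out 30 h replicate 3 and 26 h replicate 2 together was chosen after their clock gene levels were seen. Of 129 named genes, 0 to 4 changed sign in a setting. Only 66 of them entered the setting of genes above the median level, and none was checked with every probe set kept. Without both arrays that went against their labels, 3 of the 4 that changed sign were core clock genes. Median scaling moved the median of all genes to -0.009 and gave 11213 genes below 0, against 9355.

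Same-numbered arrays of 30 h and 26 h deviated from their group means with correlations of 0.0779, -0.178 and -0.271. Over all times, such correlations ran from -0.559 to 0.495. The arrays that went against their labels on clock genes carry different replicate numbers, and deviations within groups of 3 are not independent. These correlations therefore cannot decide whether replicate numbers pair the samples. With the replicate block, 0 genes passed and 492 had an unadjusted p under 0.05. With 3 arrays a time, a gene of median SE needed a difference of 0.33 log2 even if 100 genes passed, and one with a smaller SE needed less.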
